A study of Mus musculus with 9 samples.

Results

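The 33 genes described here encode the enzymes and assembly factors that copy nuclear DNA and the enzymes that supply or clean its nucleotides. They were taken by symbol from a list of 8 MCM proteins, 7 factors of origin licensing and helicase assembly, 5 polymerase and primase subunits, 5 clamp, clamp-loader and single-strand binding proteins, 2 enzymes of Okazaki fragment maturation and 6 enzymes of nucleotide supply and uracil removal, and all 33 were found among the 53465 genes of the count table. The list goes by gene names and applies no threshold to measured values. It was chosen with earlier results of these data known, so shares called within it are not those of an unselected list. RNA was measured by poly(A) RNA sequencing in 9 samples of mouse macrophages, in 3 groups of 3. Lining macrophages (A, B and C) are the GFP-positive and interstitial macrophages (D, E and F) the GFP-negative part of the CD45+CD11b+F4/80+ cells sorted from the synovium of hind paws of healthy Cx3cr1-GFP mice, a strain in which cells that use the fractalkine receptor gene Cx3cr1 make green fluorescent protein. Bone marrow-derived macrophages (BMDM; G, H and I) came from C57BL/6 mice, whose marrow precursors were cultured over 5 days with MCSF, the colony-stimulating growth factor of macrophages, in the medium. No sample received a further treatment that the labels name, and no age or sex is given. The labels do not say whether samples of a group come from separate animals or cultures, so p-values measure the spread between these samples, which may be technical. Strain, tissue, culture against sorting, and depth all separate BMDM from the sorted cells and cannot be told apart in these comparisons.

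Before a cell divides, the origin recognition complex together with Cdc6 and Cdt1 loads the ring-shaped MCM helicase (Mcm2 to Mcm7) onto origins, and at the start of S phase Cdc45 and the GINS complex join it to form the active helicase that opens the fork. Polymerase alpha and primase lay down primers, the clamp PCNA is loaded by replication factor C and holds polymerases delta and epsilon on the template, and flap endonuclease and DNA ligase join the fragments of the lagging strand. Ribonucleotide reductase, thymidylate synthase and thymidine kinase make deoxynucleotides, and transcription factors of the E2F family, held back by the retinoblastoma protein in resting cells, switch on many of these genes before S phase. Marrow precursors divide in response to MCSF as they become macrophages, while most macrophages resident in tissues divide seldom in the healthy animal.

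Transcripts of the group were lower in lining and interstitial macrophages than in BMDM. The summed level of the 33 genes was 709, 700.0 and 701 CPM (counts relative to the TMM-scaled library total, the usual CPM unit) in lining A, B and C, 748, 642 and 748 CPM in interstitial D, E and F, and 4346, 4372 and 4220 CPM in BMDM G, H and I. The BMDM sum was 6.13 times that of lining and 6.05 times that of interstitial macrophages, and the lining sum was 0.987 times the interstitial one. In bulk samples, fewer cells that transcribe a gene and less of its RNA per cell cannot be told apart.

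Libraries held 2194920, 11137451 and 2700843 counts in lining, 2238261, 10807462 and 4693755 in interstitial and 22499823, 19427273 and 20975304 in BMDM. A floor of 3 counts corresponds to 1.45, 0.286 and 1.12 CPM in lining, 1.33, 0.272 and 0.636 CPM in interstitial and 0.130, 0.149 and 0.138 CPM in BMDM, and these floors cover counting error only. A member's count in 1 library ranged between 0 and 928 in lining, 0 and 1012 in interstitial and 339 and 10415 in BMDM, so low members are measured far less precisely in the sorted cells. All 33 members passed the filter on low counts, as did 12610 genes in all. With the filter applied to the 6 sorted libraries alone, 32 of them passed and Ung did not. Summed macrophage and sort markers lay at 9202 to 10767 CPM in lining, 6344 to 9489.6 CPM in interstitial and 5142 to 5417 CPM in BMDM. They include genes of the proteins used to sort the cells, so their presence in the sorted groups was set by the sort. Cx3cr1, the gene whose reporter set the sort, had 686, 774 and 662 CPM in lining, 2.66, 4.27 and 7.84 CPM in interstitial and 311, 236 and 287 CPM in BMDM, with every lining value above every interstitial value.

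The promoters of 3 members are shown because their E2F-type letters differ in number and arrangement, and that of Mcm10 because its level differed most from BMDM. Each is the RefSeq window of 300 bases on build GRCm38.p6, 250 before and 50 after the annotated start, read 5′ to 3′ on the gene's strand. Capitals mark letters of TTTCCCGC, TTTGGCGC, TTTCGCGC or TTTGCCGC on either strand, where overlapping matches run into each other. Mcm6 is at chr1:128359656-128359955 on the minus strand, Mcm5 at chr8:75109259-75109558 on the plus strand, Cdc6 at chr11:98907901-98908200 on the plus strand and Mcm10 at chr2:5012742-5013041 on the minus strand.
Mcm6: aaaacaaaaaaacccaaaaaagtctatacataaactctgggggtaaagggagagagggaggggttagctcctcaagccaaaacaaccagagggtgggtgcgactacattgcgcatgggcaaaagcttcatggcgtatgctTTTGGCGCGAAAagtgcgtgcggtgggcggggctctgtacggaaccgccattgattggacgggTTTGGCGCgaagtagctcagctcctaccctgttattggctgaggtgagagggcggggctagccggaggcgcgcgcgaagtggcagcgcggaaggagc
Mcm5: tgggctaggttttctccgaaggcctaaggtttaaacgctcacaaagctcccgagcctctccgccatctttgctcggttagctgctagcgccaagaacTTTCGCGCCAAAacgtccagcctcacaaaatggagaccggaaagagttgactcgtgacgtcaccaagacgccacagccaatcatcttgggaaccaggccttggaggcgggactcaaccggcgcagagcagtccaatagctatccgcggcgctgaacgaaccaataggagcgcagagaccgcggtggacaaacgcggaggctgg
Cdc6: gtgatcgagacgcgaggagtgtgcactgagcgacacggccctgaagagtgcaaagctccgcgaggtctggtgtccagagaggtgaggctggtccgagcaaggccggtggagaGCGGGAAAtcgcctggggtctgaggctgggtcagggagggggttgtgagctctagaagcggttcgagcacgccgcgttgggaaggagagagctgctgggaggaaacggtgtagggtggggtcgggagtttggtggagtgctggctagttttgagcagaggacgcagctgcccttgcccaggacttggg
Mcm10: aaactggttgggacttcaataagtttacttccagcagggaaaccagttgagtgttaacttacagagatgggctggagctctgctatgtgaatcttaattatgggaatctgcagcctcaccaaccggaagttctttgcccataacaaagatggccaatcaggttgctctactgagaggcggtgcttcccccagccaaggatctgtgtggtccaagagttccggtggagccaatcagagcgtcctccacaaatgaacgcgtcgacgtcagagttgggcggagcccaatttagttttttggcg
The Mcm6 window holds 3 matches, an overlapping pair and a single one. The Mcm5 window holds 2 that overlap, the Cdc6 window 1 and the Mcm10 window 0, which says only that these letters are not in this window. The Mcm10 window ends in tttggcg, the first letters of TTTGGCGC, and a match that runs past its end would not be seen. A RefSeq entry was found for 28 members, of which 12 (42.9%) held at least 1 match. Among the 106 other genes of replication, nucleotide supply and the G1/S step listed below, 21 of 86 with an entry (24.4%) held a match, against 464 of 9700 (4.78%) of the genes that passed the count filter and 704 of 27025 (2.6%) of all genes with an entry. With TTTCCCGC and TTTGGCGC alone, 11 of 28 members (39.3%) and 15 of 86 of the other listed genes (17.4%) held a match. So did 343 of 9700 (3.54%) of the genes that passed the count filter and 1.8% of all genes. These shares are descriptions of sequence, and no binding was measured.

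**Figure D1:**
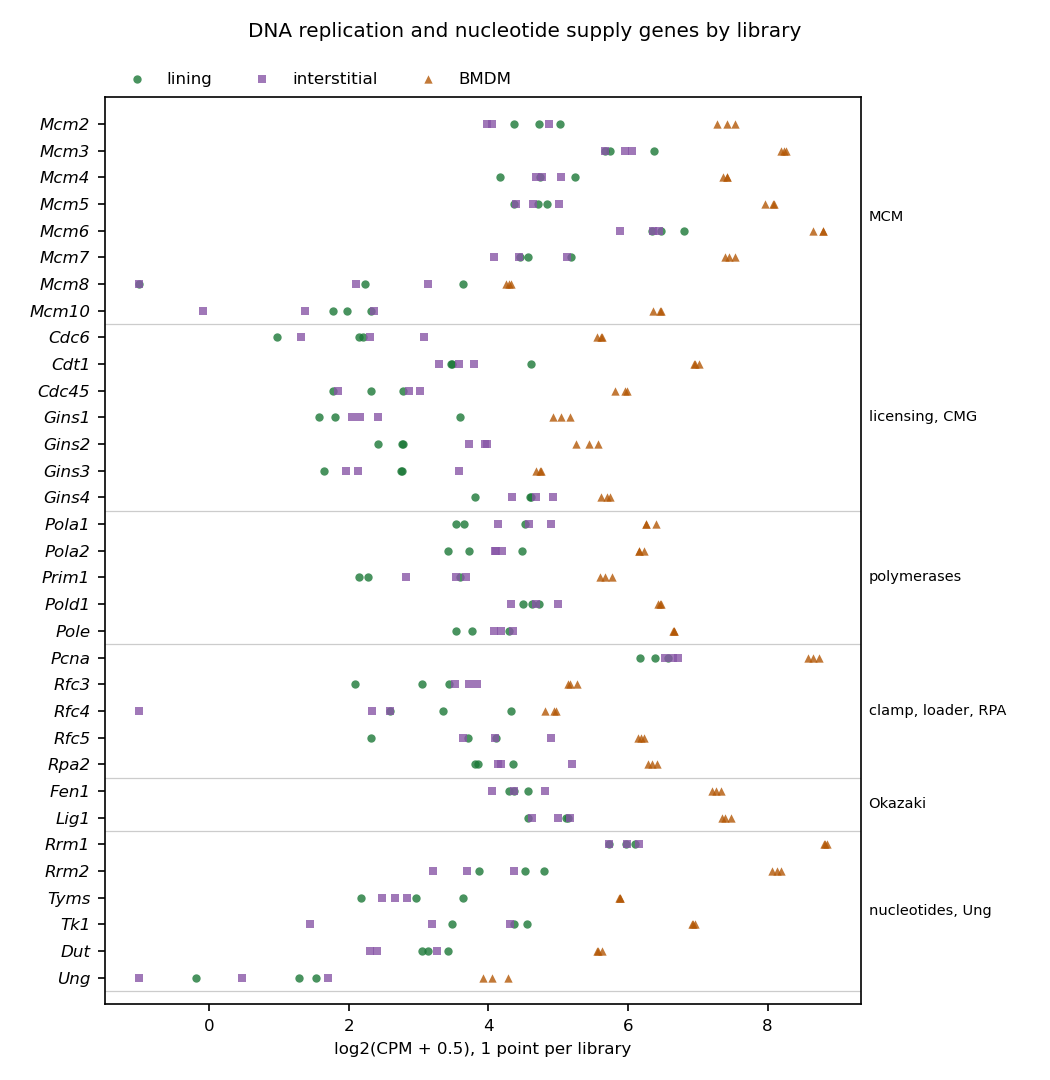
Level of each of the 33 genes in each library, as log2(CPM + 0.5), with 1 point per library and the genes grouped by role. Points of the lining and interstitial libraries overlap for all genes but Gins2, Rfc3 and Rfc4, and lie to the left of the 3 BMDM points for every gene.

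In lining macrophages 31 of the 33 genes were lower than in BMDM and 0 were higher at an adjusted p under 0.05 (edgeR quasi-likelihood test), where 20.5% of all genes tested were lower and 23.1% higher. In interstitial macrophages 32 were lower and 0 higher, where 21.3% of all genes were lower and 23.4% higher. The median log2 fold change of the members was -2.68 in lining and -2.60 in interstitial macrophages, against 0.00 and -0.01 over all genes tested. Individual genes were between 2.46 and 23.8 times lower in lining (median 6.40) and between 2.03 and 32.96 times lower in interstitial macrophages (median 6.06). In lining 29 genes were called lower by at least 4-fold, where 6% of all genes were, and 8 by at least 8-fold, where 3.77% were. In interstitial macrophages 25 were called lower by at least 4-fold, where 5.84% of all genes were, and 10 by at least 8-fold, where 3.68% were. Ung did not pass the count filter applied to the 6 sorted libraries alone. Without it, 30 of 32 genes were called lower in lining (28 by at least 4-fold, 7 by at least 8-fold, median -2.65). In interstitial macrophages 31 of 32 were (24 by at least 4-fold, 9 by at least 8-fold, median -2.55). The fitted value of all 33 members was below 0 in both comparisons, as was that of 50% of all genes in lining and 50.5% in interstitial macrophages. All 33 members had their 3 lining values below their 3 BMDM values, as 33.9% of all genes did, and the same held for the interstitial values, again against 33.9% of all genes. Both comparisons use the same 3 BMDM libraries, and the members were chosen with earlier results of these data known.

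**Figure D2:**
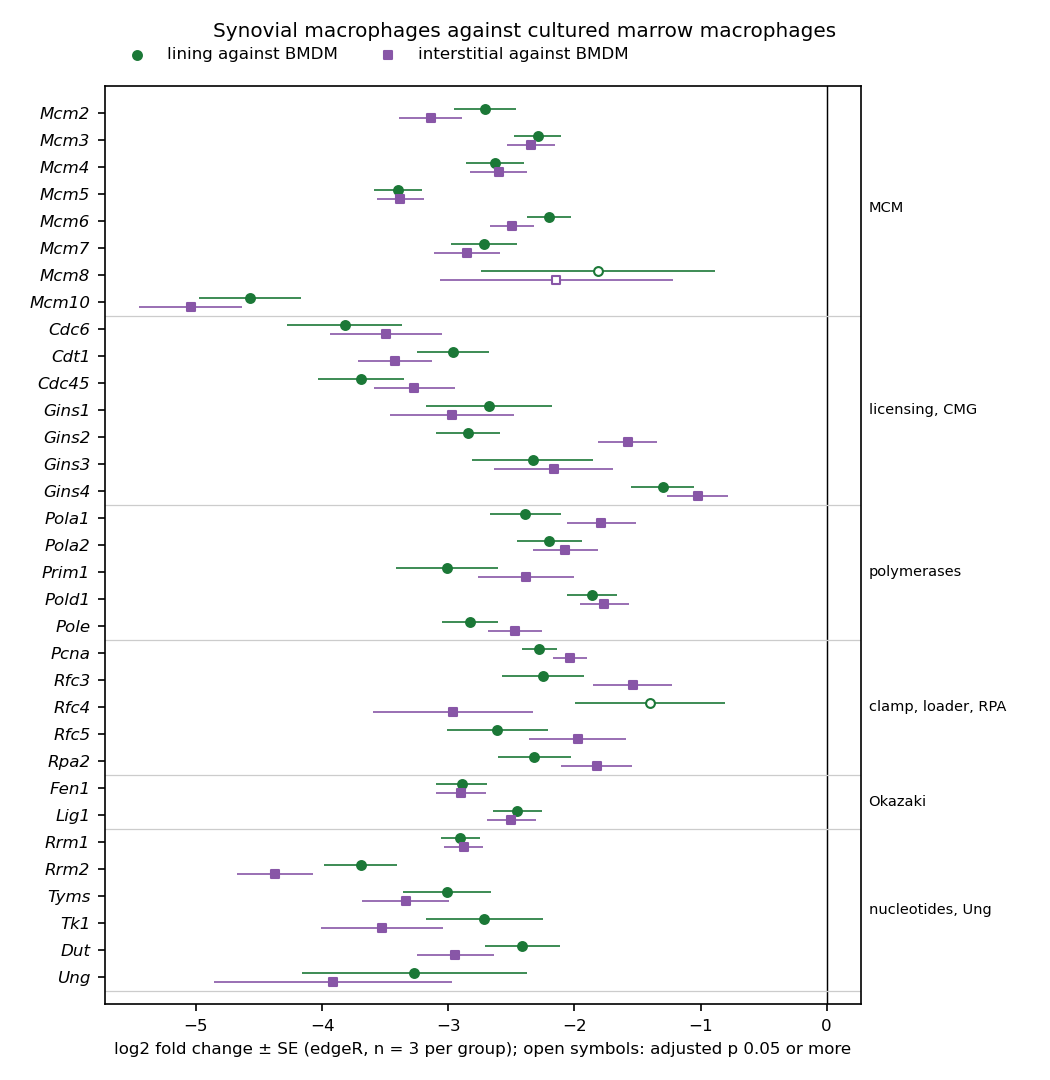
Log2 fold change of each of the 33 genes in lining and in interstitial macrophages against BMDM, with SE bars (edgeR, n = 3 per group) and open symbols where the adjusted p was 0.05 or more. Every symbol lies below 0; Mcm10 lies farthest from it and Gins4 nearest in interstitial macrophages.

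The MCM proteins, described first, are the core of the replicative helicase. Summed over the 8 genes, their level was 269 ± 21.1 CPM in lining, 239 ± 17.1 CPM in interstitial and 1612 ± 73.7 CPM in BMDM (SD, n = 3 each). Of the 8, 7 fell in lining and 7 in interstitial macrophages against BMDM, and the exception was Mcm8 in both. Of all genes tested, 20.5% fell in lining and 21.3% in interstitial macrophages, shares that stand beside the later role groups too. Values in a sentence follow the library order A to C, D to F and G to I. Mcm2, a subunit that also chaperones histones, had 32.0, 26.0 and 20.2 CPM in lining, 28.8, 16.1 and 15.3 CPM in interstitial and 171, 186 and 154 CPM in BMDM. Mcm3 had 82.3, 53.2 and 50.6 CPM in lining, 66.0, 50.6 and 61.9 CPM in interstitial and 301, 308 and 293 CPM in BMDM. Mcm4, part of the catalytic core of the ring, had 17.4, 26.1 and 37.5 CPM in lining, 32.3, 25.1 and 26.7 CPM in interstitial and 170.0, 171 and 164 CPM in BMDM. In each of these genes the lining and interstitial ranges overlapped and both lay below BMDM. Mcm5, which with Mcm2 forms the gate through which the ring opens, had 25.7, 28.0 and 20.2 CPM in lining, 31.9, 24.4 and 20.5 CPM in interstitial and 271, 269 and 248 CPM in BMDM. Its log2 fold change against BMDM was -3.40 ± 0.19 (SE, adjusted p = 6.06e-08) in lining and -3.38 ± 0.19 (SE, adjusted p = 6.11e-08) in interstitial macrophages, the largest difference in this ring in both sorted groups. Mcm6 had 111, 88.4 and 81.0 CPM in lining, 58.9, 81.6 and 86.4 CPM in interstitial and 442, 445 and 401 CPM in BMDM. With the gene's own length taken into account, Mcm6 was the most abundant of the ring, at 20.1 ± 3.39 in lining, 16.2 ± 3.15 in interstitial and 92.03 ± 5.31 in BMDM RPKM (CPM per kilobase of exon; SD, n = 3). Its log2 fold change was -2.20 ± 0.17 (SE, adjusted p = 9.66e-07) in lining and -2.49 ± 0.17 (SE, adjusted p = 3.66e-07) in interstitial macrophages. Mcm7 had 21.3, 23.3 and 36.0 CPM in lining, 16.4, 21.2 and 34.3 CPM in interstitial and 174, 184 and 168 CPM in BMDM; its annotated exons overlap Mir25 and Mir93 on the same strand, so reads there cannot be assigned with certainty. Mcm2, Mcm3, Mcm4 and Mcm7 had log2 fold changes of -2.71 ± 0.25, -2.29 ± 0.19, -2.63 ± 0.23 and -2.72 ± 0.26 in lining and -3.14 ± 0.25, -2.34 ± 0.19, -2.60 ± 0.23 and -2.85 ± 0.26 in interstitial macrophages (SE; adjusted p 6.18e-06 or less).

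The ring's subunits differed in level among themselves by 5.41 ± 0.484 times between the highest and the lowest in lining, 6.92 ± 1.93 times in interstitial and 3.77 ± 0.170 times in BMDM (RPKM, SD, n = 3 each). Mcm6 was the highest and Mcm2 the lowest of Mcm2 to Mcm7 in 8 of the 9 libraries, and in interstitial D they were Mcm3 and Mcm7. These within-ring ratios were chosen after the values were seen, and no test was made of them.

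Mcm10, a separate protein that helps the assembled helicase start to unwind, had 2.905, 3.43 and 4.50 CPM in lining, 0.443, 2.09 and 4.66 CPM in interstitial and 88.6, 87.9 and 81.2 CPM in BMDM. The highest sorted library was at 4.66 CPM and the lowest BMDM library at 81.2 CPM, and the log2 fold change was -4.57 ± 0.40 (SE, adjusted p = 2.62e-06) in lining and -5.04 ± 0.41 (SE, adjusted p = 1.31e-06) in interstitial macrophages, the largest decrease of any member in both comparisons. Interstitial D held a single count, and without interstitial F the interstitial value was -5.67. Relative to the summed RPKM of Mcm2 to Mcm7, Mcm10 stood at 0.793 ± 0.225% in lining, 0.563 ± 0.475% in interstitial and 3.20 ± 0.0449% in BMDM, a ratio also chosen after the values were seen. Mcm8, which acts with Mcm9 in recombination repair rather than in the replicative ring, had 0, 4.19 and 11.99 CPM in lining, 0, 3.81 and 8.26 CPM in interstitial and 19.6, 18.5 and 19.2 CPM in BMDM. It was at 0 counts in lining A and interstitial D, and the log2 fold changes of -1.81 ± 0.93 (SE, adjusted p = 0.141) in lining and -2.14 ± 0.93 (SE, adjusted p = 0.0835) in interstitial macrophages did not pass the test. It passed in lining without lining C (-2.79) or without interstitial D (-1.87), and in interstitial macrophages without lining A (-2.16), lining C (-2.15) or interstitial F (-2.93). Mcm8 also passed in both sorted groups under limma-voom (-2.70 in lining and -2.83 in interstitial macrophages), with only the 2 groups compared in the model (-1.85 in lining and -2.08 in interstitial macrophages) and without the 3 shallowest libraries (-2.25 in lining and -1.81 in interstitial macrophages).

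Factors that license origins and complete the helicase fell in all 7 genes in lining and in all 7 in interstitial macrophages. Their summed level was 59.7 ± 9.98 CPM in lining, 71.7 ± 5.27 CPM in interstitial and 386 ± 8.53 CPM in BMDM (SD, n = 3 each). Cdc6, the ATPase that loads the ring together with the origin recognition complex, had 1.45, 3.91 and 4.12 CPM in lining, 7.97, 1.998 and 4.45 CPM in interstitial and 49.2, 48.2 and 46.4 CPM in BMDM. Cdt1, its partner, which cells destroy or block once S phase has begun, had 10.7, 23.8 and 10.5 CPM in lining, 9.30, 13.3 and 11.4 CPM in interstitial and 123, 129 and 124 CPM in BMDM. The log2 fold changes of Cdc6 were -3.82 ± 0.46 (SE, adjusted p = 3.43e-05) in lining and -3.49 ± 0.44 (SE, adjusted p = 5.48e-05) in interstitial macrophages. Those of Cdt1 were -2.97 ± 0.29 (SE, adjusted p = 5.94e-06) in lining and -3.42 ± 0.29 (SE, adjusted p = 2.06e-06) in interstitial macrophages, and its lining value was -3.61 without lining B, the library with the highest sorted level. Cdc45, the subunit that joins the loaded ring as it is activated, had 2.905, 4.48 and 6.37 CPM in lining, 3.10, 7.63 and 6.78 CPM in interstitial and 61.7, 55.8 and 62.8 CPM in BMDM. Sorted libraries lay between 2.905 and 7.63 CPM and BMDM libraries between 55.8 and 62.8 CPM, with log2 fold changes of -3.69 ± 0.34 (SE, adjusted p = 3.95e-06) in lining and -3.27 ± 0.32 (SE, adjusted p = 6.58e-06) in interstitial macrophages.

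The 4 GINS genes encode the complex that, with Cdc45, turns the loaded ring into a working helicase, and their differences from BMDM were uneven. Gins1 had 11.6, 2.48 and 2.998 CPM in lining, 3.98, 3.63 and 4.87 CPM in interstitial and 30.0, 35.3 and 32.3 CPM in BMDM. Lining A was the highest of the sorted libraries for Gins1. The log2 fold changes were -2.68 ± 0.50 (SE, adjusted p = 0.00103) in lining and -2.97 ± 0.49 (SE, adjusted p = 0.000432) in interstitial macrophages. Without lining A the lining value was -3.64, a larger difference from BMDM. Gins3 had 6.29, 6.20 and 2.62 CPM in lining, 11.5, 3.90 and 3.39 CPM in interstitial and 25.1, 26.5 and 26.3 CPM in BMDM. Interstitial D was the highest sorted library here, and the log2 fold changes of Gins3 were -2.33 ± 0.48 (SE, adjusted p = 0.00194) in lining and -2.16 ± 0.47 (SE, adjusted p = 0.00275) in interstitial macrophages, with -2.85 in interstitial macrophages without D. Gins4 had 13.6, 23.8 and 23.6 CPM in lining, 25.2, 29.9 and 19.7 CPM in interstitial and 48.4, 53.1 and 51.5 CPM in BMDM. These were the smallest differences from BMDM in the whole group, at -1.30 ± 0.25 (SE, adjusted p = 0.00126) in lining and -1.02 ± 0.24 (SE, adjusted p = 0.00479) in interstitial macrophages, although the groups did not overlap. Per length, Gins4 was the most abundant GINS gene, with 67.9 ± 18.6% of the summed GINS RPKM in lining, 68.1 ± 7.01% in interstitial and 47.7 ± 0.890% in BMDM (SD, n = 3, chosen after the values were seen and not tested). The lining share was uneven, at 46.6% in A, 76.3% in B and 80.9% in C. Lining A thus lay below every BMDM library (46.9 to 48.7%).

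Gins2 was the 1 member of the 33 called between the sorted groups, where 5.79% of all genes tested were called. Gins2 had 6.29, 6.39 and 4.87 CPM in lining, 15.1, 12.7 and 15.3 CPM in interstitial and 42.8, 47.1 and 37.8 CPM in BMDM. The 3 lining values lay below the 3 interstitial values, which lay below the 3 BMDM values. Against BMDM the log2 fold changes were -2.84 ± 0.26 (SE, adjusted p = 3.37e-06) in lining and -1.58 ± 0.23 (SE, adjusted p = 0.000188) in interstitial macrophages. Between lining and interstitial macrophages the log2 fold change was -1.27 ± 0.26 (SE, adjusted p = 0.0138) in edgeR, 2.41 times lower in lining. The call held with each of the 9 libraries left out in turn (highest adjusted p 0.0499). It did not hold in limma-voom (-1.16, adjusted p = 0.0852), with only the lining and interstitial libraries in the model (-1.29, adjusted p = 0.253), with all libraries thinned to the smallest (-1.09, adjusted p = 0.0793) or without the 3 shallowest libraries, lining A, lining C and interstitial D (-1.11, adjusted p = 0.0611). That last setting leaves lining B as the only lining library, which is assumed to vary like those of the other groups, here and wherever the setting is named.

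**Figure D3:**
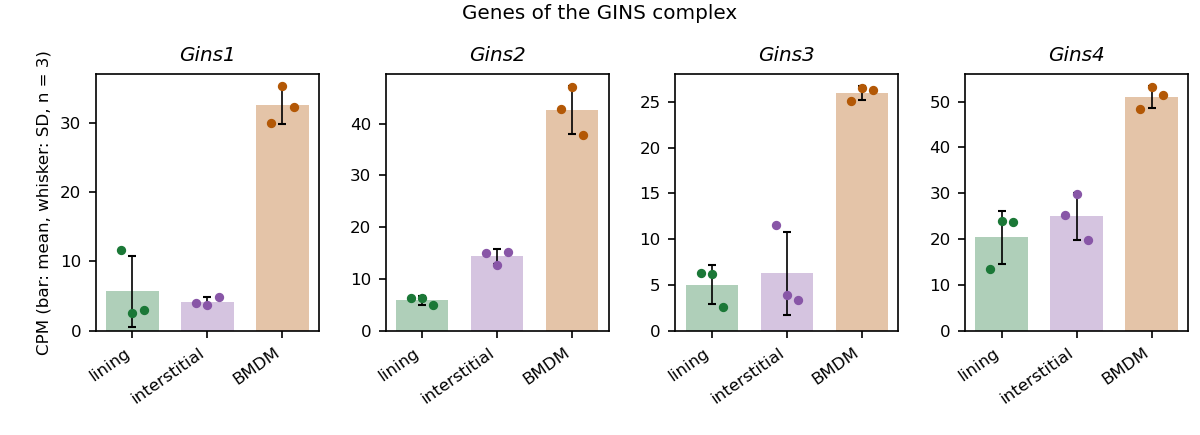
CPM of Gins1, Gins2, Gins3 and Gins4 in each library, with the group mean as a bar and the SD as a whisker (n = 3 per group). For Gins2 the lining points (4.87 to 6.39 CPM) lie below the interstitial points (12.7 to 15.3 CPM), and for the other GINS genes those points overlap.

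Polymerases and primase fell in all 5 genes in both comparisons with BMDM, with medians of -2.39 in lining and -2.07 in interstitial macrophages on the log2 scale. Pola1, the catalytic subunit of polymerase alpha, had 11.1, 12.1 and 22.5 CPM in lining, 29.2, 17.2 and 23.5 CPM in interstitial and 83.98, 76.2 and 76.3 CPM in BMDM. Pola2, its accessory subunit, had 10.2, 21.9 and 12.7 CPM in lining, 16.8, 17.9 and 16.5 CPM in interstitial and 74.8, 70.7 and 70.8 CPM in BMDM. Prim1, the catalytic subunit of primase, had 4.36, 3.91 and 11.6 CPM in lining, 11.1, 6.54 and 12.3 CPM in interstitial and 50.2, 48.0 and 54.2 CPM in BMDM. Lining C was the highest lining library for Pola1 and Prim1, and the lining log2 fold change of Prim1, -3.01 ± 0.40 (SE, adjusted p = 9.14e-05), was -3.66 without it. Pola1 and Pola2 had log2 fold changes of -2.39 ± 0.28 and -2.20 ± 0.26 in lining and -1.79 ± 0.27 and -2.07 ± 0.26 in interstitial macrophages (SE; adjusted p 0.000224 or less). Pold1, the catalytic subunit of the lagging-strand polymerase delta, had 24.2, 22.1 and 25.9 CPM in lining, 19.5, 25.2 and 31.4 CPM in interstitial and 87.4, 88.2 and 85.5 CPM in BMDM. Pole, the catalytic subunit of the leading-strand polymerase epsilon, had 13.1, 11.2 and 19.1 CPM in lining, 16.4, 17.7 and 19.9 CPM in interstitial and 101, 99.9 and 101 CPM in BMDM. In both genes every sorted library lay below the lowest BMDM library. The log2 fold changes of Pold1 were -1.86 ± 0.20 (SE, adjusted p = 1.27e-05) in lining and -1.76 ± 0.19 (SE, adjusted p = 1.64e-05) in interstitial macrophages. Those of Pole were -2.83 ± 0.22 (SE, adjusted p = 9.49e-07) in lining and -2.47 ± 0.21 (SE, adjusted p = 2.07e-06) in interstitial macrophages. The fitted difference from BMDM was larger for Pole than for Pold1 in both sorted groups, but the difference between their fold changes was not tested.

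Pcna, the sliding clamp, was the highest of the 33 genes per length in all 3 groups, at 34.7 ± 4.68 in lining, 41.1 ± 2.65 in interstitial and 168 ± 9.34 in BMDM RPKM (SD, n = 3). Pcna had 94.4, 83.3 and 72.0 CPM in lining, 104, 91.9 and 99.8 CPM in interstitial and 428, 400.3 and 383 CPM in BMDM. Its log2 fold changes of -2.28 ± 0.14 (SE, adjusted p = 1.17e-07) in lining and -2.03 ± 0.14 (SE, adjusted p = 2.70e-07) in interstitial macrophages were among the most precise of the group, and 2 processed copies of the gene in the mouse genome could share some of its reads. Rfc3, a small subunit of the clamp loader, had 7.75, 10.3 and 3.75 CPM in lining, 13.7, 12.7 and 11.02 CPM in interstitial and 34.8, 35.5 and 38.2 CPM in BMDM. Its lining values lay below its interstitial values without overlap, but the log2 fold change between them, -0.71 ± 0.33 (SE, adjusted p = 0.27), did not pass the test. Rfc5, another small subunit, had 12.6, 16.8 and 4.50 CPM in lining, 29.2, 11.9 and 16.5 CPM in interstitial and 70.5, 74.6 and 72.4 CPM in BMDM. Rpa2, which coats exposed single strands as part of replication protein A, had 13.6, 20.02 and 13.9 CPM in lining, 36.3, 17.7 and 17.2 CPM in interstitial and 77.7, 80.9 and 85.0 CPM in BMDM. Interstitial D was the highest sorted library for Rfc3, Rfc5 and Rpa2. Rfc3, Rfc5 and Rpa2 had log2 fold changes of -2.25 ± 0.33, -2.61 ± 0.40 and -2.32 ± 0.29 in lining and -1.54 ± 0.31, -1.97 ± 0.39 and -1.82 ± 0.28 in interstitial macrophages (SE; adjusted p 0.0017 or less). Rfc4, a further clamp-loader subunit, had 9.68, 5.53 and 19.5 CPM in lining, 0, 4.54 and 5.51 CPM in interstitial and 30.2, 27.4 and 30.9 CPM in BMDM. It fell in interstitial macrophages, -2.96 ± 0.63 (SE, adjusted p = 0.0025), while the lining value of -1.40 ± 0.59 (SE, adjusted p = 0.0755) did not pass. The lining value passed without lining C (-2.06) or without interstitial D (-1.48), the library at 0 counts. It also passed under limma-voom (-1.96), with only the 2 groups compared in the model (-1.48) and without the 3 shallowest libraries (-2.48). Of the 5 genes, 4 fell in lining and 5 in interstitial macrophages.

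Both enzymes that finish Okazaki fragments fell in each sorted group. Fen1, the nuclease that trims displaced flaps, had 23.2, 20.2 and 19.1 CPM in lining, 27.4, 16.2 and 20.1 CPM in interstitial and 148, 161 and 154 CPM in BMDM. Lig1, the ligase that seals the remaining nick, had 34.9, 34.2 and 23.2 CPM in lining, 35.4, 24.2 and 31.4 CPM in interstitial and 168, 178 and 162 CPM in BMDM. Lining and interstitial libraries overlapped in both genes. The log2 fold changes of Fen1 were -2.89 ± 0.20 (SE, adjusted p = 3.82e-07) in lining and -2.90 ± 0.20 (SE, adjusted p = 3.58e-07) in interstitial macrophages. Those of Lig1 were -2.45 ± 0.20 (SE, adjusted p = 1.23e-06) in lining and -2.50 ± 0.20 (SE, adjusted p = 1.05e-06) in interstitial macrophages.

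Nucleotide supply and uracil removal fell in all 6 genes in both comparisons, Ung included, with medians of -2.96 in lining and -3.43 in interstitial macrophages on the log2 scale. Rrm1, the large subunit of ribonucleotide reductase, had 62.5, 52.5 and 67.8 CPM in lining, 70.8, 52.7 and 62.9 CPM in interstitial and 449.9, 453 and 459.9 CPM in BMDM. It gave the smallest p of all members in both comparisons, with log2 fold changes of -2.91 ± 0.15 (SE, adjusted p = 3.81e-08) in lining and -2.88 ± 0.15 (SE, adjusted p = 4.09e-08) in interstitial macrophages. Rrm2, the small subunit, which in most cell types accumulates in S phase, had 14.04, 22.6 and 27.4 CPM in lining, 12.4, 8.72 and 20.1 CPM in interstitial and 282, 267 and 293 CPM in BMDM. The log2 fold changes of Rrm2 were -3.69 ± 0.29 (SE, adjusted p = 9.66e-07) in lining and -4.37 ± 0.30 (SE, adjusted p = 3.38e-07) in interstitial macrophages. Per length, Rrm2 ranked 6th of the 33 genes in lining, 14th in interstitial and 2nd in BMDM, and its RPKM was 1.40 ± 0.444 times that of Rrm1 in lining, 0.875 ± 0.344 times in interstitial and 2.45 ± 0.0970 times in BMDM (SD, n = 3). This ratio of the reductase subunits was chosen after the values were seen and has no test.

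Tyms, thymidylate synthase, had 7.26, 4.003 and 11.99 CPM in lining, 6.64, 5.81 and 5.08 CPM in interstitial and 58.8, 58.0 and 58.9 CPM in BMDM. Tk1, the thymidine kinase of the cytosol, had 10.7, 23.0 and 20.2 CPM in lining, 2.21, 8.63 and 19.3 CPM in interstitial and 121, 124 and 122 CPM in BMDM. Tk1 was lowest in interstitial D, and its log2 fold changes were -2.71 ± 0.46 (SE, adjusted p = 0.000953) in lining and -3.52 ± 0.48 (SE, adjusted p = 0.000205) in interstitial macrophages, with -4.23 in interstitial macrophages without F. Dut, which destroys dUTP before it can be built into DNA, had 7.75, 10.2 and 8.25 CPM in lining, 4.43, 4.81 and 9.11 CPM in interstitial and 49.1, 46.7 and 46.9 CPM in BMDM. Tyms and Dut had log2 fold changes of -3.01 ± 0.35 and -2.41 ± 0.30 in lining and -3.34 ± 0.35 and -2.94 ± 0.30 in interstitial macrophages (SE; adjusted p 4.44e-05 or less). Ung, the glycosylase that removes uracil from DNA, was the lowest member per length in all 3 groups. Ung had 1.94, 2.38 and 0.375 CPM in lining, 0.885, 0 and 2.75 CPM in interstitial and 14.6, 18.9 and 16.2 CPM in BMDM. Its log2 fold changes, -3.27 ± 0.89 (SE, adjusted p = 0.011) in lining and -3.91 ± 0.94 (SE, adjusted p = 0.00509) in interstitial macrophages, rested on few counts: the lining value was -3.96 without lining B, and the interstitial value was -3.06 without E and -6.51 without F. With lining B as the only lining library (A, C and interstitial D left out), the lining value of Ung was -2.86 (adjusted p = 0.0768). Ung did not pass the count filter applied to the 6 sorted libraries alone.

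Between lining and interstitial macrophages 1 of the 33 genes, Gins2, was lower in lining and 0 were higher, where 2.05% of all genes tested were lower and 3.74% higher. The fitted log2 fold change was below 0 in 17 genes, where 51.1% of all genes tested were, and above it in 16, and its median was -0.02, against -0.01 over all genes. At an unadjusted p under 0.05, 1 member was lower and 2 higher in lining in edgeR, where 8.95% and 10.4% of all genes were. The higher pair was Rfc4, 1.56 ± 0.65 (SE, adjusted p = 0.211), and Rrm2, 0.68 ± 0.29 (SE, adjusted p = 0.229), neither of which passed after adjustment. The Rfc4 value was 0.91 without lining C and 0.17 without the 3 shallowest libraries. Rrm2 passed without interstitial F (1.10, adjusted p = 0.0325). DESeq2 called 1 gene lower and 0 higher, and limma-voom called 0 in either direction, with 1 lower and 3 higher at an unadjusted p under 0.05. Groups that did not overlap were found for 2 members lower in lining (Gins2 and Rfc3), where 8.65% of all genes had this, and for 1 higher (Rfc4), where 9.94% had it. Without the 3 shallowest libraries, which leaves lining B alone in its group, the value was 0.93 for Cdt1 (adjusted p = 0.0294) and -0.74 for Pole (adjusted p = 0.0496). Lining B was the highest lining library of Cdt1 and the lowest of Pole. The log2 fold changes of Pcna and Pola1 were -0.25 ± 0.13 (SE, adjusted p = 0.353) and -0.60 ± 0.29 (SE, adjusted p = 0.282). A p that misses the threshold does not show that levels were the same.

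**Figure D4:**
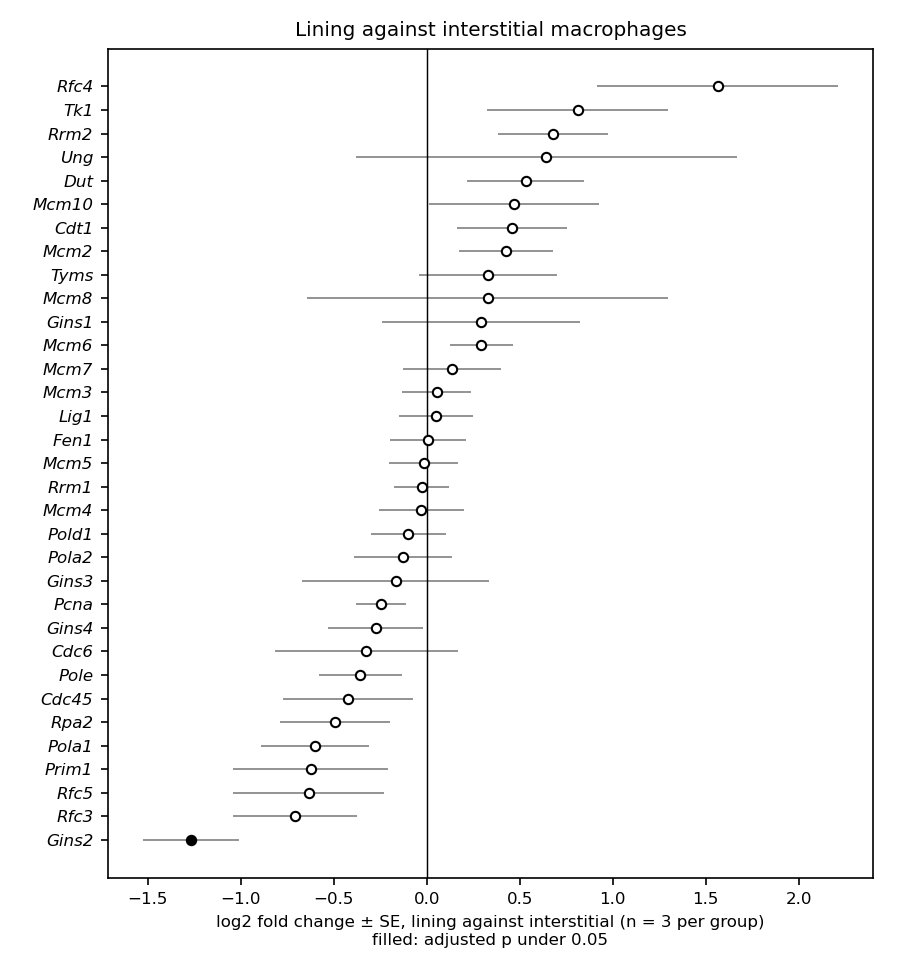
Log2 fold change of each of the 33 genes in lining against interstitial macrophages, with SE bars (edgeR, n = 3 per group) and a filled symbol where the adjusted p was under 0.05. Gins2 at -1.27 is the filled symbol, and 16 of the 33 symbols lie above 0.

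Markers of other cells differed between the groups too, and their part in the results was not tested. Markers of granulocyte and monocyte precursors summed to 2.62 to 3.72 CPM in lining, 5.08 to 11.95 CPM in interstitial and 81.4 to 97.6 CPM in BMDM, with 4 to 6 of the 7 genes at 0 in the sorted libraries and 0 of 7 in BMDM. Neutrophil markers summed to 0 to 6.86 CPM in lining, 0 to 82.8 CPM in interstitial and 51.7 to 66.7 CPM in BMDM. Fibroblast markers were higher in the sorted cells, at 109 to 137 CPM in lining, 124 to 209 CPM in interstitial and 1.51 to 2.30 CPM in BMDM. Between the sorted groups, dendritic cell markers summed to 3.87 to 40.5 CPM in lining and 89.2 to 140.3 CPM in interstitial (3.37 to 4.27 CPM in BMDM), and endothelial markers to 5.62 to 12.01 CPM in lining and 22.8 to 43.2 CPM in interstitial (45.8 to 50.7 CPM in BMDM). Both sums lay lower in lining than in interstitial macrophages without overlap. The same held for the sums of the B cell markers and of the granulocyte and monocyte precursor markers. The endothelial sum in BMDM was nearly all Kdr, which had 3.39, 1.144 and 0.375 CPM in lining, 8.41, 1.91 and 2.12 CPM in interstitial and 45.2, 49.0 and 43.6 CPM in BMDM. Pecam1, Cdh5 and Tie1 were higher in interstitial macrophages than in BMDM (log2 4.27, 2.98 and 4.12, adjusted p 0.00938 or less). Erythroid markers summed to 125, 10.96 and 44.6 CPM in lining A, B and C and 415, 5.63 and 23.1 CPM in interstitial D, E and F. In BMDM they summed to 0.794 to 4.65 CPM. Lining A and interstitial D, the highest of their groups, are also among the shallowest libraries. B cell markers lay at 0.968 to 5.53 CPM in lining, 8.90 to 10.7 CPM in interstitial and 0.783 to 1.17 CPM in BMDM. T and NK cell markers lay at 0 to 0.968 CPM in lining, 0 to 0.424 CPM in interstitial and 0 to 0.0921 CPM in BMDM.

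Of 106 other genes of the same processes, in 5 lists, 71 fell and 5 rose against BMDM in lining. In interstitial macrophages 71 fell and 8 rose. Of all genes tested, 20.5% fell and 23.1% rose in lining, and 21.3% fell and 23.4% rose in interstitial macrophages. These shares stand beside the counts of each of the 5 lists. A gene whose value is given for 1 sorted group was named by its rank or direction there, and the groups need not differ in it. Of 17 further licensing and firing genes, 13 fell in lining and 11 in interstitial macrophages, and 0 rose in either. Ticrr, which helps Cdc45 and GINS join the ring, had 0, 4.10 and 4.50 CPM in lining, 0, 0.363 and 2.33 CPM in interstitial and 53.4, 49.98 and 51.6 CPM in BMDM. Against BMDM the log2 values were -3.99 ± 0.66 (SE, adjusted p = 0.000555) in lining and -5.82 ± 0.76 (SE, adjusted p = 9.54e-05) in interstitial macrophages, and the interstitial value, from 15 counts in all, was -5.13 without E and -7.43 without F. Cdc7, the catalytic subunit of the kinase that fires origins, had log2 fold changes of -3.63 ± 0.41 (SE, adjusted p = 2.16e-05) in lining and -3.61 ± 0.40 (SE, adjusted p = 1.72e-05) in interstitial macrophages. Recql4, a helicase-family protein needed for initiation, fell by 4.35 ± 0.57 on the log2 scale in interstitial macrophages (adjusted p = 7.08e-05). Orc1, the largest subunit of the origin recognition complex, had 0, 0.191 and 2.62 CPM in lining, 4.43, 0 and 3.18 CPM in interstitial and 14.8, 16.3 and 14.9 CPM in BMDM. It passed in lining (log2 -4.31 ± 1.27 SE, adjusted p = 0.0177), on 9 counts, but not without lining B (-3.46, adjusted p = 0.0742) or without BMDM G, H or I (adjusted p 0.0517, 0.0543 and 0.0502), and it was -6.55 without lining C.

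Of 18 further polymerase, clamp-loader and maturation genes, 11 fell in lining and 12 in interstitial macrophages, with 0 that rose. Atad5, which takes PCNA off finished DNA, had a log2 fold change of -2.70 ± 0.27 (SE, adjusted p = 8.11e-06) in lining. Dna2, a nuclease for long flaps, had log2 fold changes of -2.58 ± 0.28 (SE, adjusted p = 1.61e-05) in lining and -2.10 ± 0.27 (SE, adjusted p = 6.08e-05) in interstitial macrophages. Chtf18, the large subunit of an alternative clamp loader, had -2.44 ± 0.52 (SE, adjusted p = 0.00272) in lining and -2.57 ± 0.51 (SE, adjusted p = 0.00158) in interstitial macrophages, and Pole2, the second subunit of polymerase epsilon, had -2.63 ± 0.46 (SE, adjusted p = 0.000682) in interstitial macrophages. Of 12 genes of fork protection and chromatin copying, 11 fell in lining and 11 in interstitial macrophages. Clspn, an adaptor of the replication checkpoint, had 7.26, 9.44 and 3.37 CPM in lining, 11.95, 7.27 and 3.81 CPM in interstitial and 122, 118 and 112 CPM in BMDM. Clspn fell in both groups, with -4.03 ± 0.37 (SE, adjusted p = 3.74e-06) in lining and -4.02 ± 0.37 (SE, adjusted p = 3.48e-06) in interstitial macrophages on the log2 scale. Asf1b, a histone chaperone, had -3.39 ± 0.41 (SE, adjusted p = 6.68e-05) in lining and -3.65 ± 0.41 (SE, adjusted p = 3.71e-05) in interstitial macrophages, and Uhrf1, which carries DNA methylation over to the new strand, had -3.38 ± 0.29 (SE, adjusted p = 2.16e-06) in lining and -3.72 ± 0.29 (SE, adjusted p = 1.04e-06) in interstitial macrophages.

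Most of the other nucleotide supply genes fell, and some rose. Of 29, 18 fell and 3 rose in lining, and 17 fell and 4 rose in interstitial macrophages. Of all genes tested, 23.1% rose in lining and 23.4% in interstitial macrophages. Among those that fell, Shmt2, a mitochondrial enzyme of one-carbon metabolism, had log2 fold changes of -2.94 ± 0.15 (SE, adjusted p = 2.37e-08) in lining and -2.69 ± 0.14 (SE, adjusted p = 4.10e-08) in interstitial macrophages. Mthfd2, another such enzyme, had -3.93 ± 0.66 (SE, adjusted p = 0.00167) in lining and -2.94 ± 0.61 (SE, adjusted p = 0.00472) in interstitial macrophages, and -3.68 in interstitial macrophages without F. Dck, the kinase of deoxycytidine salvage, had -2.73 ± 0.21 (SE, adjusted p = 8.18e-07) in interstitial macrophages. It was not called between lining and interstitial macrophages (log2 -0.18 ± 0.21 SE, adjusted p = 0.692). The genes that rose included both deoxynucleoside kinases of the mitochondrion. Tk2 had 91.99, 74.8 and 72.0 CPM in lining, 119, 81.6 and 60.8 CPM in interstitial and 16.8, 19.5 and 19.8 CPM in BMDM. Tk2 rose, with 2.09 ± 0.23 (SE, adjusted p = 1.93e-05) in lining and 2.21 ± 0.23 (SE, adjusted p = 1.13e-05) in interstitial macrophages on the log2 scale, opposite in sign to those of the cytosolic kinase Tk1. Dguok had 1.06 ± 0.24 (SE, adjusted p = 0.00386) in lining and 1.09 ± 0.24 (SE, adjusted p = 0.00278) in interstitial macrophages. Impdh1, an enzyme of guanine nucleotide synthesis, had 86.7, 90.0 and 67.1 CPM in lining, 139, 109 and 134 CPM in interstitial and 60.8, 63.7 and 53.5 CPM in BMDM. It rose in interstitial macrophages (log2 1.10 ± 0.16 SE, adjusted p = 0.000183) and in lining (log2 0.46 ± 0.16 SE, adjusted p = 0.0393), where the call was lost when A, B, F, G, H or I was left out (adjusted p up to 0.217). It was lost there too with plain library totals (0.34, adjusted p = 0.0955), with no filter (0.33, adjusted p = 0.192) and with a filter on mean CPM (0.42, adjusted p = 0.051). Impdh1 was lower in lining than in interstitial macrophages (log2 -0.64 ± 0.17 SE, adjusted p = 0.0416), a call lost when any library other than E was left out (adjusted p up to 0.0978). That call was also lost under limma-voom (-0.56, adjusted p = 0.0536), with only the 2 groups in the model (-0.65, adjusted p = 0.122) and without the 3 shallowest libraries (-0.43, adjusted p = 0.215). Umps, which completes UMP synthesis, had 76.5, 56.0 and 46.1 CPM in lining, 27.004, 20.9 and 31.8 CPM in interstitial and 60.8, 61.2 and 59.3 CPM in BMDM. It was higher in lining than in interstitial macrophages (log2 1.17 ± 0.22 SE, adjusted p = 0.00976), in each of the 9 models with a library left out but not without the 3 shallowest libraries, where lining B stands alone (1.12, adjusted p = 0.0578).

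Of 30 genes of E2F and G1/S control, 18 fell and 2 rose in lining, and 20 fell and 4 rose in interstitial macrophages. E2f7 and E2f8, repressors that E2F itself switches on, fell the most. E2f7 had 0.484, 2.57 and 0 CPM in lining, 0, 1.54 and 2.54 CPM in interstitial and 39.4, 41.8 and 42.1 CPM in BMDM. Its values in lining A, lining C and interstitial D lay under the floor of 3 counts, so the size of its fall is uncertain. On the log2 scale it fell in both, -4.77 ± 0.68 (SE, adjusted p = 0.00014) in lining and -4.71 ± 0.67 (SE, adjusted p = 0.000128) in interstitial macrophages, and the lining value was -7.56 without B. E2f8 had -4.14 ± 0.36 (SE, adjusted p = 2.64e-06) in lining and -4.39 ± 0.36 (SE, adjusted p = 1.59e-06) in interstitial macrophages. Ccnd2, a cyclin of G1, had -3.66 ± 0.67 (SE, adjusted p = 0.00133) in lining, and Ccna2, the cyclin of S phase, had -3.83 ± 0.86 (SE, adjusted p = 0.0096) in interstitial macrophages and -4.47 there without F. Rb1, the retinoblastoma protein that restrains E2F, had 76.5, 66.8 and 85.5 CPM in lining, 65.5, 107 and 69.9 CPM in interstitial and 36.6, 33.9 and 35.4 CPM in BMDM. It rose, with 1.11 ± 0.20 (SE, adjusted p = 0.000872) in lining and 1.21 ± 0.20 (SE, adjusted p = 0.000422) in interstitial macrophages. E2f5, a repressor E2F, had 0.92 ± 0.30 (SE, adjusted p = 0.025) in lining and 1.137 ± 0.29 (SE, adjusted p = 0.00755) in interstitial macrophages. Its lining call was lost without lining C, without any 1 of the BMDM libraries (adjusted p 0.0781 to 0.104), with no filter on low counts (adjusted p = 0.107) or without the 3 shallowest libraries (adjusted p = 0.0888). Cdkn1b, the cyclin-dependent kinase inhibitor p27, had 0.93 ± 0.25 (SE, adjusted p = 0.00926) in interstitial macrophages, lost without E (0.74, adjusted p = 0.0531) or without the 3 shallowest libraries (0.76, adjusted p = 0.0529). E2f3, an activator E2F, had 59.1, 37.3 and 34.1 CPM in lining, 24.3, 20.2 and 13.3 CPM in interstitial and 43.0, 43.6 and 40.9 CPM in BMDM. It was higher in lining than in interstitial macrophages (log2 1.18 ± 0.27 SE, adjusted p = 0.0255), a call that remained without C and without D but not without any other library (adjusted p up to 0.0995). It was also lost with only the 2 groups in the model (1.17, adjusted p = 0.083) or without the 3 shallowest libraries (1.12, adjusted p = 0.0581). Umps and E2f3 were the 2 genes higher, and Impdh1 the 1 gene lower, among the 106 in that comparison.

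**Figure D5:**
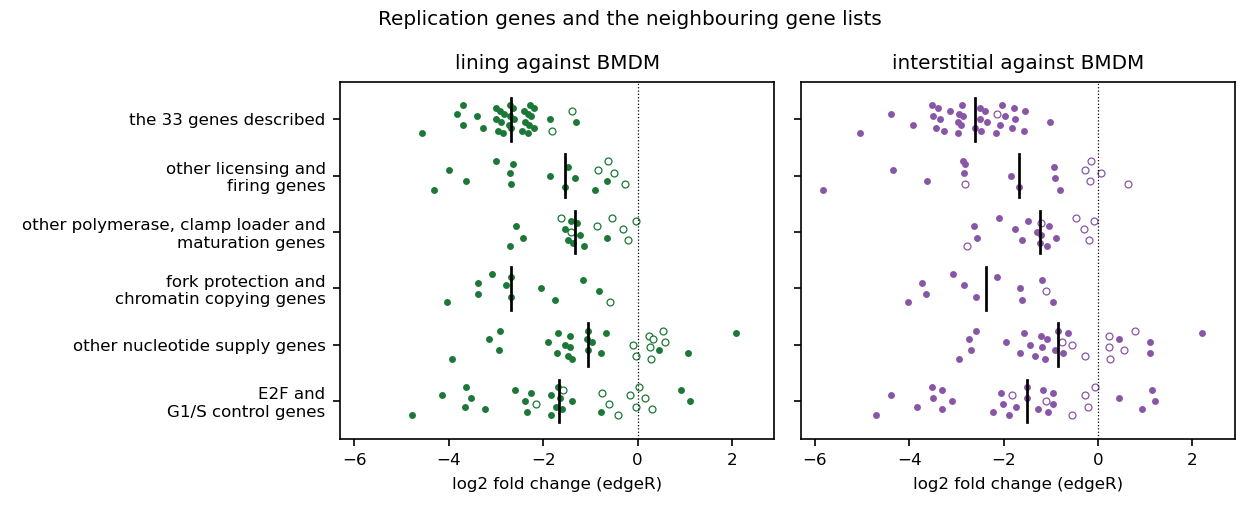
Log2 fold changes of the 33 genes and of the 5 neighbouring lists in lining (left) and interstitial macrophages (right) against BMDM, 1 point per gene with the median as a bar. The median of the 33 genes, -2.68 in lining and -2.60 in interstitial macrophages, lies below 0 with that of every neighbouring list, and the genes above 0 in the nucleotide list include Tk2 at 2.09 in lining.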

How the data were processed

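Poly(A) RNA was measured in 9 samples of mouse macrophages. The authors deposited raw read counts per gene with the exon length of each, made with featureCounts 1.6.1 on Ensembl release 91 (GRCm38), per the file headers. The submitters' processing notes also name STAR 2.5.4a, cutadapt 1.15, bcl2fastq 2.17.1.14, DESeq2 1.20.0 and R 3.5.0, with no role. Reads of near-identical copies may be lost in counting. Total counts per library ranged between 2194920 and 22499823, and shallow libraries give wider errors for low genes.

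Symbols were matched for 53274 of 53465 genes. The test was the quasi-likelihood one of edgeR 4.0.16 (with limma 3.58.1, R 4.3.3). filterByExpr, set to a minimum count of 10 and a minimum total of 15, kept 12610 genes, and TMM set the scaling. The model held all 9 libraries with 1 mean for each group (6 residual degrees of freedom). From it came 3 contrasts, 2-sided, whose p-values were adjusted by Benjamini and Hochberg's method across the genes kept, and an adjusted p under 0.05 is a call. CPM uses the TMM-scaled totals, RPKM the exon length in the table. SD is over the 3 libraries of a group. The procedure was tested on simulated data.

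The members and lists were chosen with earlier results of these data known. All members were reported. In each other list the 3 largest called differences against BMDM, all genes called between the sorted groups and up to 3 called against the list's direction were named, and levels by library were given for some of these. The result for 1 gene that this rule names is not reported here. Alternatives were DESeq2 1.42.0, limma-voom, other scalings and filters, only 2 groups in the model, thinning, and each library left out. Leaving out the 3 shallowest libraries, and rescaling the summed levels, were chosen after seeing the data. Promoter windows were read from RefSeq (GRCm38.p6), whose starts can differ from the Ensembl gene ends, in Python 3.11.15, and figures were drawn with matplotlib 3.10.9.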

Additional observations from a re-analysis of the deposited data

Results flagged for a closer look

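4 genes had effects that differed between the sorted groups, where the difference between the lining and the interstitial fold change against BMDM is the edgeR test of lining against interstitial macrophages. Among the 33 genes this was Gins2, at -1.27 on the log2 scale (adjusted p = 0.0138), with every lining library below every interstitial one. Among the neighbouring genes it was Umps at 1.17 (adjusted p = 0.00976), E2f3 at 1.18 (adjusted p = 0.0255) and Impdh1 at -0.64 (adjusted p = 0.0416). These are 4 of the 139 genes listed (2.88%), where 5.79% of all genes tested were called between the sorted groups. Each of the 4 calls is lost under at least 1 alternative, given beside its values above.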

How the results depend on the processing

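Directions held for all 33 genes against BMDM under every alternative run, with 31 to 33 called lower in lining and 32 to 33 in interstitial macrophages when each library was left out. No paired analysis was possible because samples carry the letters A to I and no number shared between groups. Lining and interstitial cells are the GFP-positive and GFP-negative parts of the same sorted population. Their libraries may therefore share animals, which the labels do not say, and the test treated them as independent. Between lining and interstitial macrophages, members called lower were 0 under limma-voom, 0 with only those 2 groups in the model and 0 after thinning, and members called higher were 0 to 1 with each library left out and 1 without the 3 shallowest libraries. The median log2 fold change was -2.81 in lining against BMDM with no filter, and -2.83 in interstitial macrophages against BMDM under limma-voom and -2.92 to -2.56 with each library left out. With plain library totals the mean summed CPM of the members was 673 in lining and 4457 in BMDM, and with each library left out it was 689 to 703 in lining and 4295 to 4426 in BMDM. Over all genes, plain totals moved the median log2 fold change in lining against BMDM to -0.11 and gave 380 genes higher and 326 lower in lining against interstitial macrophages, where TMM gave 471 and 259; DESeq2 gave 709 and 589. The number of genes tested ran between 10606 and 22320 over the settings. The cause of these moves was not tested. Depth limits the low members, since a floor of 3 counts is over 1 CPM in lining A, lining C and interstitial D.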
